A study of Mus musculus with 4 samples.

Results

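Dnmt1, Dnmt3a, Dnmt3b, Uhrf1, Tet1, Tet2, Tet3, Tdg and Mbd2 are 9 genes whose proteins write, copy, oxidize, remove or read methyl groups on DNA. They were taken by name from the 52459 genes listed in the count table, and all 9 were found and passed the filter on low counts. The counts came from intestinal stem cells (ISCs) of the small intestine of C57/Bl6 wild-type (WT) mice, which differed in age by the labels, 2 months (ISC_2mth, young) or 22 months (ISC_22mth, old). Each age had 2 libraries, and each library was made from the sorted cells of a pool of 5 female animals, so a value is an average over animals and n is 2 pools per age. Cells were sorted by the SM6 strategy, a gate on surface proteins that keeps epithelial cells with high EPHB2 and CD44 and leaves out CD31-positive endothelial and CD45-positive blood cells. RNA was amplified by SPIA, a linear method from small inputs, and sequenced along the full length of transcripts.

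In mammals, methyl groups sit mostly on cytosines that are followed by guanine (CpG). DNMT3A and DNMT3B place them on unmethylated DNA, while DNMT1 copies the pattern onto the new strand after replication, guided by UHRF1, which recognizes CpG methylated on the old strand only. TET1, TET2 and TET3 oxidize the methyl mark, TDG excises its oxidized forms so that base excision repair can restore cytosine, and MBD2 binds methylated CpG as part of the NuRD repressor complex. In the intestinal crypt, where stem cells divide throughout life, DNMT1 is known for keeping the pattern through these divisions.

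The 4 libraries held 11662654 to 15975698 counts, of which mitochondrially encoded genes took 62.6% and 65.7% in the young pools and 73.8% and 72.9% in the old ones. This left 3852178 to 4593004 counts for all other genes. ISC markers were present in every pool, with Lgr5 at 206 to 248 CPM (counts scaled to the size of the library, after TMM normalization, which scales libraries on the bulk of genes), Olfm4 at 1111 to 1302, Epcam at 472 to 534 and Ascl2 at 42.5 to 54.1. Of the cells the gate removes, the defining markers were near 0, with Ptprc at 0, 0, 2 and 0 counts and Pecam1 at 1, 0, 1 and 7 counts (young pools 1 and 2, then old pools 1 and 2). Of the 12 leukocyte and endothelial markers, 4 had 0 counts in every pool and 2 passed the filter, Itgam at 148, 196, 254 and 252 counts and Itgae at 51 to 64 counts. The 12 added up to 14.7 and 17.7 CPM in the young pools and 24.7 and 26.0 CPM in the old ones, most of it from Itgam. The sum of the 10 enterocyte markers was 517 and 664 CPM in the young pools and 1026 and 944 CPM in the old ones, although Vil1, Lct, Apoa1 and Apoa4 overlapped between the ages. The sum of the 10 secretory markers was 1914 and 2253 CPM in the young pools and 3262 and 1937 CPM in the old ones. The part of these cells in the differences below was not tested. In bulk RNA, fewer cells of a type and less RNA per cell cannot be told apart.

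Per kilobase of exon, Mbd2 and Dnmt1 had the highest levels of the 9 genes and Tdg the lowest. Mbd2 lay between 18.5 and 28.3 CPM per kb over the 4 pools and Dnmt1 between 13.7 and 16.0. Uhrf1 followed at 4.35 to 6.81 and Tet3 at 4.11 to 5.55 CPM per kb, and these ranges overlapped. Tet2, at 2.57 to 3.13 CPM per kb, overlapped Dnmt3a, at 2.27 to 2.95. Tet1 lay at 1.13 to 1.3, Dnmt3b at 0.784 to 0.960 and Tdg at 0.380 to 0.526 CPM per kb, each range below the one before it. The lengths were those of the union of all annotated exons, which is longer than any single transcript of a gene, so the order depends on how many alternative exons are annotated. They also include stretches shared with other genes, whose reads may not have been counted. Of the 50-nt stretches, 41.2% were shared for Tdg, 15.4% for Uhrf1 and 9.81% for Dnmt3b.

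**Figure D1:**
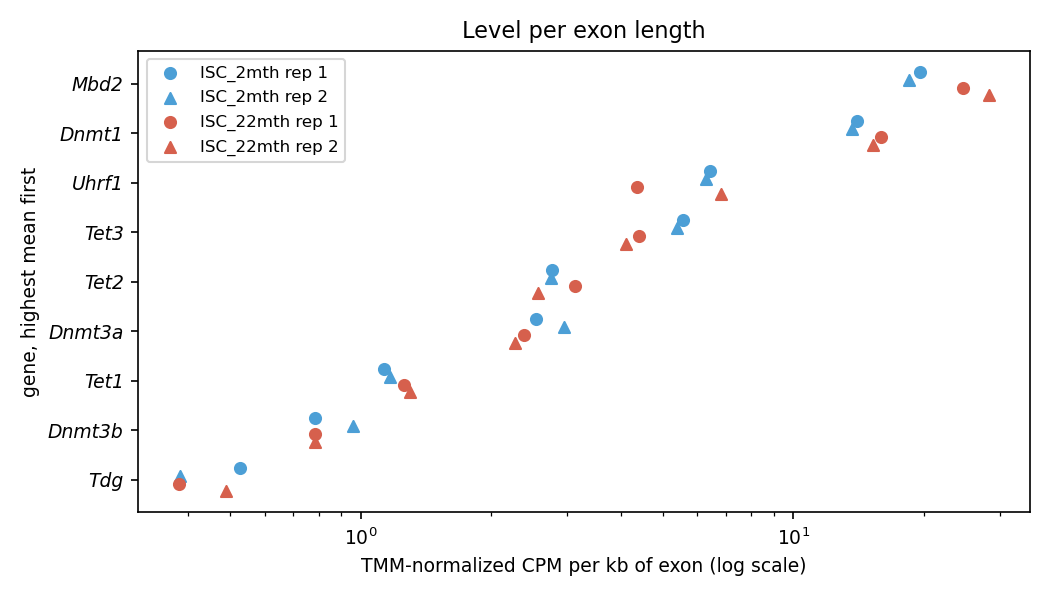
Levels of the 9 genes per length, as TMM-normalized CPM per kb of exon (log axis), with 1 point per pool coloured by age. Mbd2 and Dnmt1 stand above the other 7 genes in all 4 pools, while Uhrf1 overlaps Tet3 and Tet2 overlaps Dnmt3a.

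Between young and old ISCs, none of the 9 genes passed the test across all genes (edgeR's quasi-likelihood test, adjusted p under 0.05), against 2.26% of the 13692 genes tested (1.63% higher and 0.628% lower in old ISCs). At an unadjusted p under 0.05 there were 2 of the 9, Mbd2 with the higher values in old pools and Tet3 with the lower ones, where 16.9% of all genes had such a p, 9.26% higher and 7.65% lower. DESeq2 also called 0 of the 9, and 147 genes higher and 50 lower among the 13692. In contrast, edgeR's likelihood ratio test called 1 of the 9, Mbd2, and 375 genes higher and 236 lower among the same 13692. Limma voom with sample quality weights called the same gene, and 2.34% of all genes. Fitted log2 fold changes, old over young, were above 0 for 4 genes and below 0 for 5, where 50.5% of all genes were below 0, with a median of -0.07 beside -0.0049 over all genes tested. The values of the ages did not overlap for 5 of the 9 genes (Dnmt1, Dnmt3a, Tet1, Tet3 and Mbd2), and this held for 47.6% of all genes. Added up, the 9 genes took 400.2 and 398 CPM in the young pools and 407 and 409 CPM in the old ones. With 2 pools per age, an exact permutation test of a single gene cannot pass a threshold of 0.05, so the tests below are those of the fit across all genes. Their p-values rest on the spread between pools, which is estimated for each gene with the help of the other genes.

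**Figure D2:**
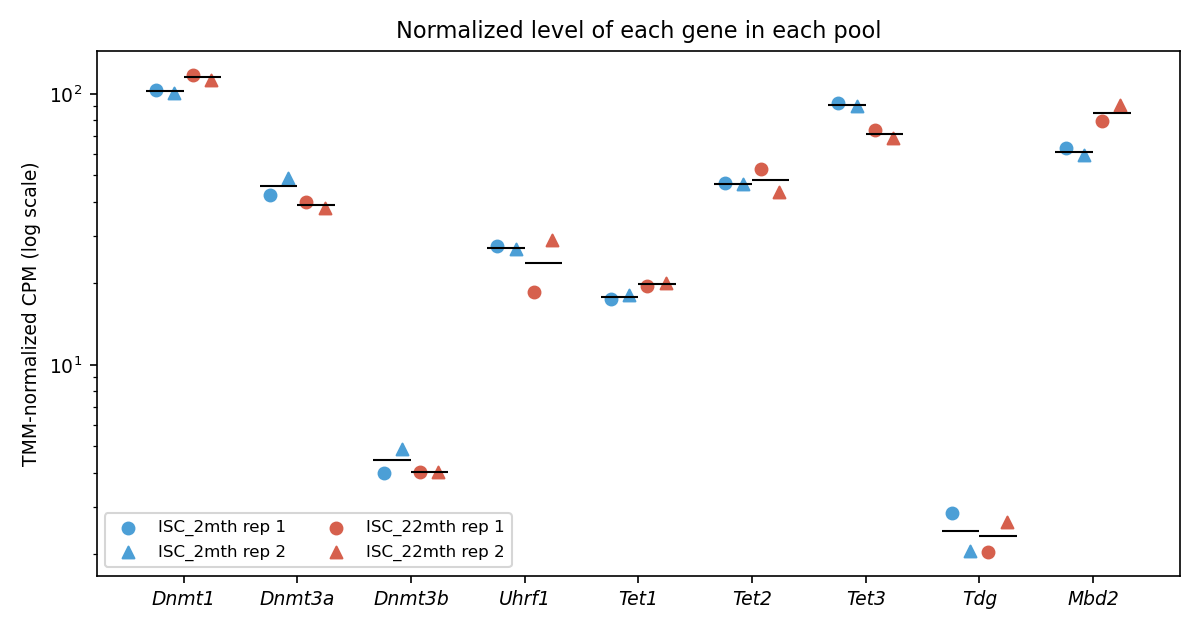
TMM-normalized CPM (log axis) of each of the 9 genes in every pool, young pools in blue and old pools in red, with the mean of each age as a horizontal line. The ages separate without overlap for Dnmt1, Dnmt3a, Tet1, Tet3 and Mbd2, and the old pools of Uhrf1 lie far apart, at 18.5 and 29.0 CPM.

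The maintenance genes Dnmt1 and Uhrf1 showed no difference between the ages that passed the test. Dnmt1 (chr9:20907209-20959888, GRCm38, minus strand) had 1503 and 1524 counts in the young pools and 1556 and 1374 in the old ones, or 104 and 101 CPM against 118 and 113 CPM. Both old pools were above both young pools, by a small margin. The means were 102 ± 1.92 and 115 ± 3.69 CPM (SD over 2 pools). The log2 fold change was 0.17 ± 0.12 (SE) with a 95% interval from -0.08 to 0.42 and an adjusted p of 0.492 by edgeR's quasi-likelihood test. With offsets that correct each library for GC content and length of the exons, the Dnmt1 estimate was 0.29 (adjusted p = 0.272).

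Uhrf1 (chr17:56303321-56323486, plus strand) had 397 and 403 counts in the young pools and 245 and 354 in the old ones. In CPM this was 27.4 and 26.7 against 18.5 and 29.0, so the young pools were alike, old pool 1 was the lowest of the 4 and old pool 2 the highest. The log2 fold change of -0.19 ± 0.18 (SE; 95% interval -0.57 to 0.19, adjusted p = 0.640) therefore turned with the library left out. It was 0.10 without old pool 1 and -0.54 without old pool 2 (adjusted p = 0.0708, edgeR). Set against Dnmt1 in the same library, a ratio that needs no normalization between libraries, Uhrf1 had 0.264 counts per Dnmt1 count in both young pools and in the old pools 0.158 and 0.258. Of the 50-nt stretches of Uhrf1 transcripts, 15.4% were also found in other genes, most of them in Gm5648, which had at most 2 counts in any pool.

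The genes of S phase, when Dnmt1 and Uhrf1 act, were not called by the quasi-likelihood test either. Of 19 listed genes of DNA replication and the cell cycle, all 19 were tested and 0 were called by edgeR's quasi-likelihood test (2.26% of all genes), with a median log2 fold change of 0.05. Their summed level was 1831 and 1873 CPM in the young pools and 1931 and 2128 CPM in the old ones. Most of it came from Mki67, at 902 and 948 CPM in the young pools and 1003 and 1092 CPM in the old ones, and from Top2a. Top2a lay at 405 and 409 CPM in the young pools and 386 and 466 CPM in the old ones. The lowest p-values in the list belonged to Rrm2, a subunit of ribonucleotide reductase, at 23.7 and 25.6 CPM in the young pools and 34.6 and 37.8 CPM in the old ones (log2 fold change 0.55, adjusted p = 0.0510, edgeR), and to Pcna, the replication clamp, with a log2 fold change of 0.28 (adjusted p = 0.290), which was 0.10 with the GC and length offsets (adjusted p = 0.803). Rrm2 did pass the threshold by limma voom (0.0481), the likelihood ratio test (0.0190), with no filter (0.0313) and with the replicate block (0.0189). Its adjusted p was 0.121 by DESeq2 and 0.152 with the GC and length offsets (estimate 0.44). The Rrm2 estimate was 0.50 and 0.60 without young pools 1 and 2, and 0.62 and 0.49 without old pools 1 and 2.

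Among the de novo writers, Dnmt3a had the lower values in old pools, and neither gene passed the test. Dnmt3a (chr12:3806007-3914443, plus strand) had 614 and 740 counts in the young pools and 526 and 462 in the old ones, which was 42.4 and 49.0 against 39.8 and 37.8 CPM. Old pool 1 and young pool 1 were close, and the ages did not overlap. The means were 45.7 ± 4.72 and 38.8 ± 1.39 CPM (SD, n = 2), with a log2 fold change of -0.24 ± 0.14 (SE; 95% interval -0.52 to 0.05, adjusted p = 0.408). The Dnmt3a estimate was -0.07 with the offsets for GC content and length (adjusted p = 0.870), and between -0.34 and -0.13 with any 1 library left out, the smaller size coming without young pool 2.

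Dnmt3b (chr2:153649450-153687730, plus strand) was lower per length than Dnmt3a in every pool, with 58 and 74 counts in the young pools and 53 and 49 in the old ones. At 4.00 and 4.90 against 4.01 and 4.01 CPM, only young pool 2 stood apart, and the ages overlapped. The interval of its log2 fold change (-0.15 ± 0.30, SE) ran from -0.78 to 0.48 (adjusted p = 0.847, edgeR), and the estimate was -0.0027 without young pool 2, -0.29 without young pool 1 and -0.08 with the GC and length offsets. Stretches of 50 nt shared with Dnmt3c, a close copy known from the male germ line, made up 9.81% of Dnmt3b, and Dnmt3c itself had 0, 0, 2 and 0 counts. Dnmt3l, the cofactor of the de novo enzymes in germ cells, had 0 counts in all 4 pools, which allows up to 3 counts, or 0.188 to 0.257 CPM by library (counting error only).

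Within each pool, the 3 DNA methyltransferases together had 1885 to 2338 counts. Dnmt1 took 69.1% of them in young pool 1 (95% Wilson interval 67.1 to 71.0%) and 65.2% in young pool 2 (63.2 to 67.1%), and in old pools 1 and 2 it took 72.9% (71.0 to 74.7%) and 72.9% (70.8 to 74.8%). Dnmt3a took 28.2% and 31.7% in the young pools and 24.6% and 24.5% in the old ones. The young pools differed between themselves about as much as young pool 1 differed from the old pools. Dnmt3b stayed between 2.48% and 3.17%. These shares compare counts, which also scale with transcript length, and amplified reads that carry no molecular tag can copy 1 molecule many times, so the intervals cover counting error only.

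The TET genes are placed by the annotation on chromosomes 10, 3 and 6 and differ in the sequence before their start sites. The 100 bases upstream of a RefSeq start of each gene are shown (GRCm38.p6, minus strand in all 3, each CpG in capitals), because CpG are the bases on which these enzymes act. Tet1 lies at chr10:62887325-62887424, Tet2 at chr3:133544391-133544490 and Tet3 at chr6:83441679-83441778.
Tet1: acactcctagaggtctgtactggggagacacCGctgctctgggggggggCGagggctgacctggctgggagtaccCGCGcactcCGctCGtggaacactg
Tet2: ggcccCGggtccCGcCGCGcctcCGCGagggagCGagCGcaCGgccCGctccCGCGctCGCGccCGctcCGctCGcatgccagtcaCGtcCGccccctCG
Tet3: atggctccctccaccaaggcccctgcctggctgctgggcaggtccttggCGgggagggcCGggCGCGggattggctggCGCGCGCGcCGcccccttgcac
These stretches held 6, 20 and 9 CpG. Over 300 bases (250 before the start and 50 after it), Tet2 had 57 CpG, Tet3 22 and Tet1 17, and the median of 32851 RefSeq promoters was 7. Fewer CpG than in the Tet2 promoter were found in 99.8% of them. The sequence is that of the reference, and methylation at these sites was not analysed here.

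Of the TET genes, Tet3 had the lower values in old ISCs and the lowest p of the 3, without passing the test. Tet3 (chr6:83362373-83459084) had 1343 and 1356 counts in the young pools and 970 and 837 in the old ones. This was 92.7 and 89.9 CPM against 73.4 and 68.5 CPM, with the pools of an age close to each other and the ages well apart. The old mean, 71.0 ± 3.43 CPM, was 77.8% of the young mean of 91.3 ± 1.98 CPM (SD, n = 2). Its log2 fold change was -0.36 ± 0.12 (SE; 95% interval -0.62 to -0.11) with an unadjusted p of 0.00763 and an adjusted p of 0.130 by edgeR's quasi-likelihood test, and the adjusted p was 0.101 by limma voom and 0.206 by DESeq2. Tet3 exons have a GC content of 55.8%, the highest of the 9 genes, and with the offsets for GC content and length the estimate was -0.14 ± 0.12 (SE, adjusted p = 0.647).

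Tet2 (chr3:133463679-133545139) had 677 and 703 counts in the young pools and 697 and 529 in the old ones. In CPM it lay at 46.7 and 46.6 against 52.7 and 43.3, so the old pools fell on either side of the young ones. The log2 fold change was 0.04 ± 0.14 (SE; 95% interval -0.24 to 0.33, adjusted p = 0.911), and -0.11 without old pool 1. Tet1 (chr10:62804570-62908996) had 254 and 273 counts in the young pools and 258 and 245 in the old ones, or 17.5 and 18.1 against 19.5 and 20.1 CPM. The ages of Tet1 did not overlap, and the difference, 0.15 ± 0.16 on the log2 scale (SE; 95% interval -0.19 to 0.49), did not pass the test (adjusted p = 0.687, edgeR).

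Counted against each other within a pool, the TET genes gave the same order of shares in every pool and a smaller share of Tet3 in the old ones. Tet3 took 59.1% of the summed TET counts in young pool 1 (95% Wilson interval 57.0 to 61.1%) and 58.1% in young pool 2 (56.1 to 60.1%). In the old pools it took 50.4% (48.2 to 52.6%) and 52.0% (49.5 to 54.4%), so the intervals of the ages did not meet. These intervals cover counting error only. Those of the Dnmt1 share in young pools 1 and 2, 67.13 to 71.01% and 63.23 to 67.09%, did not meet either. Tet2 took 29.8% and 30.1% in the young pools and 36.2% and 32.8% in the old ones, and Tet1 took 11.2% and 11.7% against 13.4% and 15.2%. There were 1.98 and 1.93 counts of Tet3 for each count of Tet2 in the young pools and 1.39 and 1.58 in the old ones. Against the summed DNA methyltransferase counts, the summed TET counts came to a ratio of 1.05 and 0.997 in the young pools and 0.902 and 0.855 in the old ones. These shares need no normalization between libraries and carry no correction for GC content or length, and no test was made on them. Tet2 exons have a GC content of 44.1% against the 55.8% of Tet3, and the difference between the fitted log2 fold changes of Tet3 and Tet2 was -0.41 without the GC and length offsets and -0.18 with them.

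**Figure D3:**
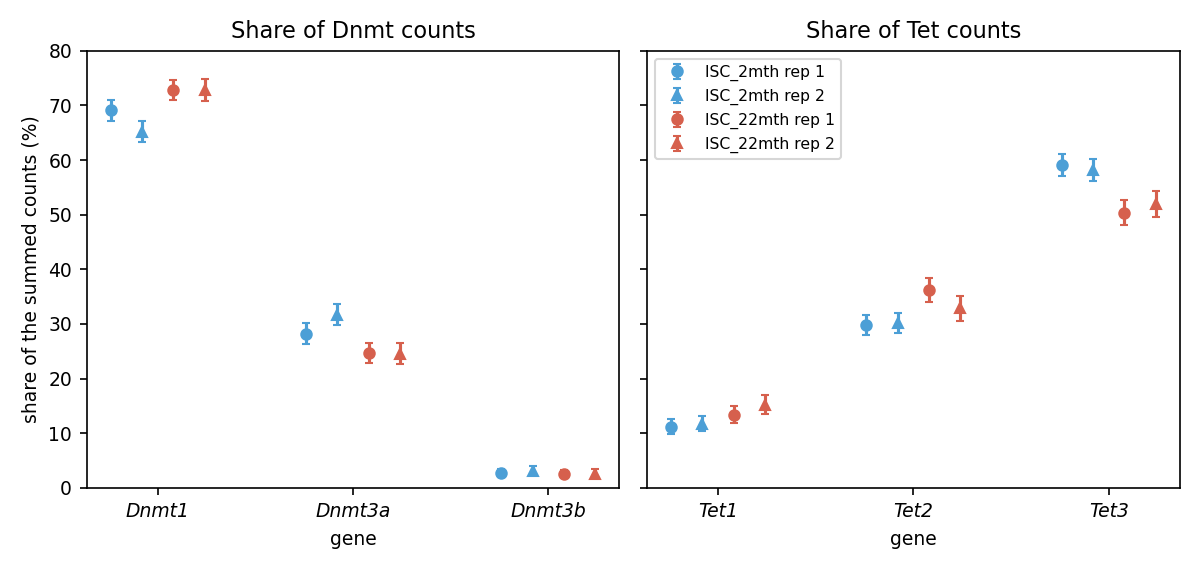
Share of each gene in the summed counts of the 3 DNA methyltransferases (left) and of the 3 TET genes (right) in every pool, in percent, with 95% Wilson intervals that cover counting error only. The Tet3 share is 58.1 to 59.1% in young pools and 50.4 to 52.0% in old pools, and the Dnmt1 share is 65.2 to 69.1% and 72.9%.

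Tdg (chr10:82629828-82650799, plus strand) was counted too thinly to show a difference of moderate size. It had 41 and 31 counts in the young pools and 27 and 32 in the old ones, or 2.83 and 2.05 against 2.04 and 2.62 CPM, with the ages overlapping. The log2 fold change of -0.07 ± 0.41 (SE) had an interval from -0.93 to 0.80 (adjusted p = 0.954, edgeR), and it was 0.18 without young pool 1 and 0.10 without old pool 1. Its counts are uncertain, since 41.2% of its 50-nt stretches also occur in other genes, among them the pseudogenes Tdg-ps, Gm9855 and Gm5597, which had 0 counts in all 4 pools. In addition, 367 bases of its exons overlap Glt8d2 on the opposite strand, a gene with 3 to 9 counts per pool.

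Mbd2, the methyl-CpG reader of the group, had the higher values in old ISCs and the lowest p of the 9 genes. Mbd2 (chr18:70568189-70626131, plus strand) had 914 and 897 counts in the young pools and 1047 and 1112 in the old ones. In CPM it lay at 63.1 and 59.4 in the young pools and at 79.2 and 91.1 in the old ones, with both old pools above both young pools. The means were 61.3 ± 2.56 and 85.2 ± 8.37 CPM (SD, n = 2), a ratio of 1.39. The log2 fold change was 0.48 ± 0.13 (SE; 95% interval 0.21 to 0.74), with an unadjusted p of 0.00135 and an adjusted p of 0.0554 by edgeR's quasi-likelihood test, which placed it at rank 333 of the 13692 genes by p. None of its 50-nt stretches were found in another gene.

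The adjusted p of Mbd2 lay close to the threshold of 0.05, and its side of it changed with the method. It was 0.0348 by limma voom with sample quality weights, 0.0280 by edgeR's likelihood ratio test and 0.0675 by DESeq2, and 0.0492 with the offsets for GC content and length. The estimates of these fits were alike, from 0.47 to 0.51. Leaving out 1 library gave 0.37 (adjusted p = 0.109) without old pool 2, 0.43 (adjusted p = 0.241) without young pool 2, 0.52 (adjusted p = 0.198) without young pool 1 and 0.57 (adjusted p = 0.00335) without old pool 1. Scaled by total counts alone, mitochondrial counts included, the Mbd2 estimate was -0.02 where the median of all genes was -0.50, that is 0.48 above it. In counts per Dnmt1 count, Mbd2 stood at 0.608 and 0.589 in the young pools and at 0.673 and 0.809 in the old ones. The study itself, with its own limma voom fit, called Mbd2 as higher in old ISCs at an FDR under 0.05. It also called Rrm2, Gatad2b, Axin2 and Cdk6, which the quasi-likelihood test did not call here.

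**Figure D4:**
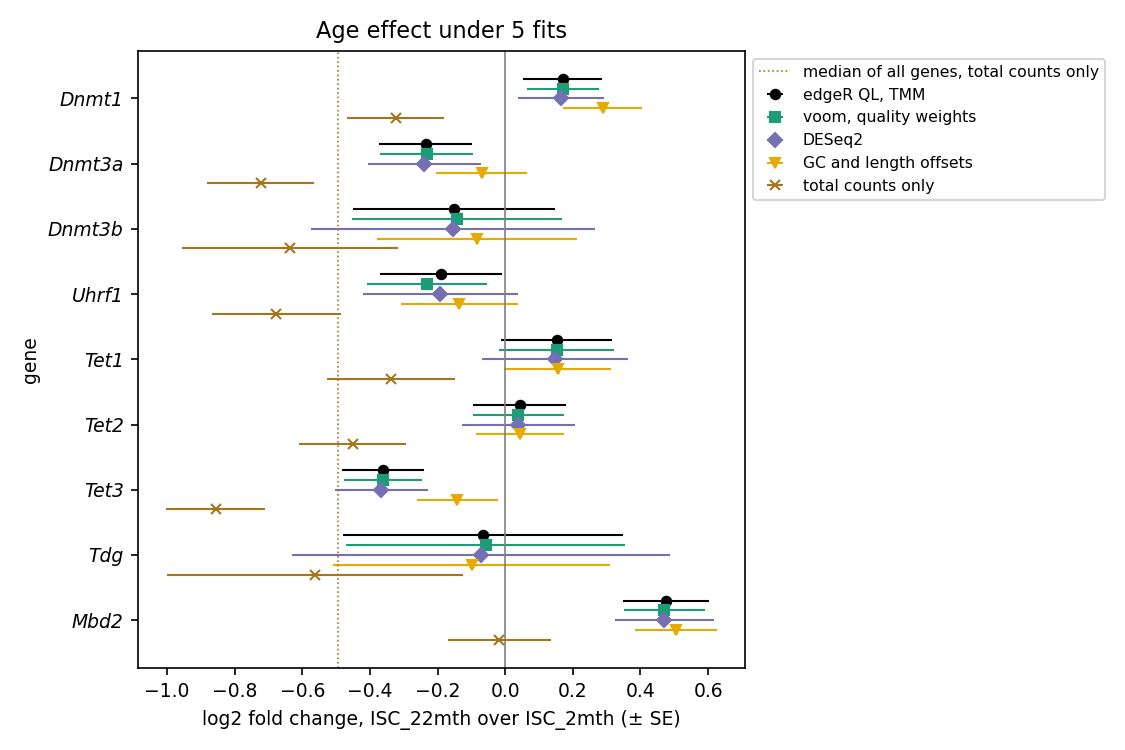
Log2 fold change of each of the 9 genes, old over young, with its SE (bars), from edgeR's quasi-likelihood fit, limma voom, DESeq2, the GC and length offsets, and scaling by total counts, whose median over all genes is the dotted line. The Tet3 estimate moves from -0.36 to -0.14 with the offsets, and all 9 estimates move down, as that median does, when libraries are scaled by total counts.

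Around these 9 genes, 6 lists of related genes, 73 genes in all, gave 2 calls among the 64 genes tested (2.26% of all genes were called), Mbd6 lower and Idh1 higher in old pools. Over the 64, the median estimate was -0.05 beside -0.0049 over all genes, with 25 estimates above 0 and 39 below. At an unadjusted p under 0.05 there were 12 of the 64, 4 higher and 8 lower in old pools, where 16.9% of all genes had such a p. In 37 of the 64 the ages did not overlap, beside 47.6% of all genes.

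Other readers of methylated CpG and genes related to them were listed with 11 genes, all tested, and Mbd6 was the 1 called. Mbd6, which belongs to the MBD family by sequence but whose protein is not known to bind methylated CpG, had 305 and 354 counts in the young pools and 139 and 164 in the old ones, or 21.0 and 23.5 against 10.5 and 13.4 CPM. Both old pools were far below both young ones, and Mbd6 fell by 0.90 ± 0.18 on the log2 scale (SE, adjusted p = 0.0132, edgeR). Its exons have a GC content of 62.3%, and with the offsets for GC content and length the estimate was -0.64 (adjusted p = 0.0848). Of the 11 NuRD subunits, the complex in which MBD2 acts, 0 were called, and the list median was -0.14 on the log2 scale. The lowest p-values there were those of Gatad2b, at 0.33 (adjusted p = 0.151, and 0.0275 without old pool 2), and the deacetylase Hdac1, at -0.43 (adjusted p = 0.352).

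The demethylation and base excision repair list had 17 genes, of which 14 were tested and 1 was called. Idh1, the cytosolic enzyme that makes the 2-oxoglutarate used by TET enzymes, had 234 and 236 counts in the young pools and 384 and 284 in the old ones. It rose from 15.9 ± 0.36 to 26.2 ± 4.10 CPM (SD, n = 2), by 0.72 ± 0.17 on the log2 scale (SE, adjusted p = 0.0271, edgeR). The adjusted p of Idh1 was 0.0593 by DESeq2, 0.102 with the GC and length offsets, and 0.0759, 0.0831 and 0.0865 without young pool 1, young pool 2 or old pool 1. Its product is used in many other reactions too. The enterocyte markers Fabp1, Fabp2 and Sis, the 3 called of 10 (2.26% of all genes), had log2 fold changes of 2.35, 0.93 and 1.38, and Fabp2 was not called by DESeq2 (adjusted p = 0.218) and was at 0.62 without young pool 1. The part of such cells in the Idh1 value was not tested.

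None of the genes in the remaining lists of the pathway passed edgeR's quasi-likelihood test. The proteins that bind unmethylated CpG had the lowest median, -0.19 over 7 genes. Among them Kdm2b, a histone demethylase with a CXXC domain, had 8.35 and 11.0 CPM in the young pools and 5.22 and 5.08 in the old ones (log2 fold change -0.91, adjusted p = 0.0564). The adjusted p of Kdm2b was under the threshold by the likelihood ratio test (0.0212), with the upper quartile (0.0467), no filter (0.0264) and the replicate block (0.0214), and by total counts. It was 0.0779 by limma voom, 0.197 by DESeq2 and 0.141 with the GC and length offsets (estimate -0.77). The Kdm2b estimate was -1.09 and -0.70 without young pools 1 and 2, and -0.93 and -0.89 without old pools 1 and 2. Kmt2b, a histone H3 methyltransferase, had a log2 fold change of -0.46 (adjusted p = 0.130). The Kmt2b estimate was -0.22 with the GC and length offsets (adjusted p = 0.541), and its adjusted p was 0.559, 0.180, 0.306 and 0.0356 without young pools 1 and 2 and old pools 1 and 2. In the list of cofactors of the writers, with 10 of 13 genes tested and a median of -0.0083, the lowest p-values belonged to Ehmt1 at -0.35 (adjusted p = 0.200) and Nsd1 at -0.25 (adjusted p = 0.261), both histone methyltransferases. In the list of methyl donor synthesis, with 11 of 14 tested and a median of -0.01, they belonged to Mat2b at 0.44 (adjusted p = 0.127) and Mthfd2 at -0.54 (adjusted p = 0.284).

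**Figure D5:**
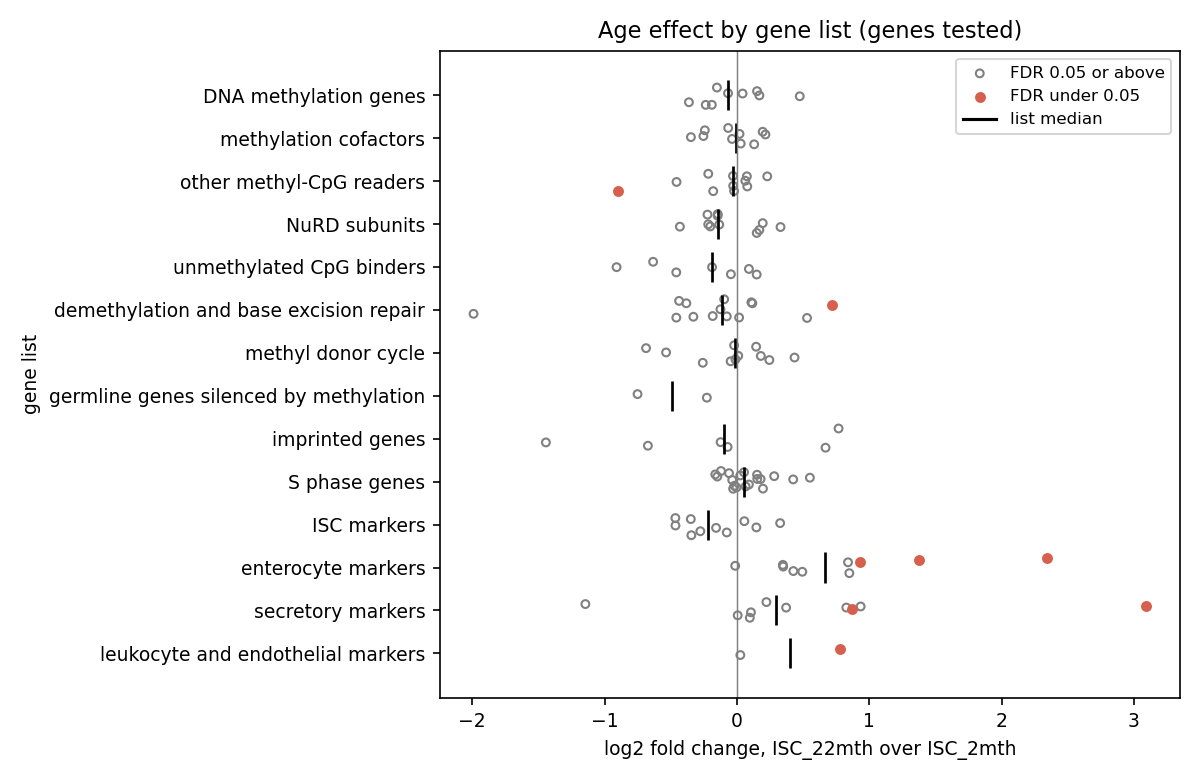
Log2 fold changes, old over young, of the tested genes of each list (points), with called genes filled in red and each list median as a vertical line. The DNA methylation genes hold 0 calls of 9 and the enterocyte markers 3 of 10, with a list median of 0.67.

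Over the 4 pools, the listed genes nearest to members of the group were found by the Euclidean distance between log2 CPM centred on each gene's mean, among 123 tested genes of the other lists. Tet3 was nearest to Ehmt1, at a distance of 0.0437, and to Cdk6, at 0.0828. Tet2 was nearest to the MBD family gene Mbd5 (0.0380), Dnmt1 to the deacetylase gene Hdac2 (0.0532), and Tet1 to the proliferation marker Mki67 (0.0677). The next nearest were Smug1 (0.103) for Tet2, Cxxc1 (0.0635) for Dnmt1 and Usp7 (0.0891) for Tet1. Dnmt3a and Dnmt3b had the same pair of nearest genes, Gatad2a (0.0984 and 0.0838) and Cdt1 (0.114 and 0.0857). The distance of Uhrf1 to its nearest gene, Sycp3, was 0.237, followed by Kdm2a at 0.249. Tdg was nearest to Setdb2 (0.114) and Mbd1 (0.157), both of the list of other readers and related genes. With 4 pools, such distances describe a pattern of 4 values and carry no test.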

How the data were processed

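RNA of ISCs sorted from pools of 5 mice was sequenced single-end in 4 libraries, 2 per age. Per the labels and the methods, the authors trimmed reads with Trimmomatic 0.30, aligned them to GRCm38 with STAR 2.4.2a, and deposited raw counts per gene, made with featureCounts from the exons of GENCODE vM15. Strand and multimapping settings are not given in the sources used here. SPIA libraries carry no molecular tags.

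A gene was tested if some pool had over 5 reads and over 1 CPM for it, which left 13692 of 52459. Ages were compared with TMM normalization and edgeR 4.0.16 (glmQLFit, glmQLFTest, R 4.3.3) without covariates, with Benjamini-Hochberg adjustment over all genes kept and a threshold of 0.05. The F statistic of each gene gave the SE and interval of its log2 fold change. The fits were tested on simulated data. Alternatives were limma 3.58.1 (voom with sample quality weights), edgeR's likelihood ratio test, DESeq2 1.42.0, other scalings and filters, the replicate number as a block, offsets from a lowess fit (span 0.3) on GC content and length in each library, and leaving out each pool. Counts of the pools of 1 age differed by more than counting noise (chi-square per gene 9.54 over 15010 genes in young and 7.19 over 14235 in old pools), so the tables do not hold 1 library deposited again. The replicates are those of the labels.

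The 9 genes and the gene lists were chosen with earlier results of these data known. Named genes are the 9, every called gene of a list, otherwise its 2 genes of lowest p, the 2 nearest profiles of each of the 9 (those of Mbd2 are not reported here), and defining markers. Of all 52459 genes, 47976 matched a symbol of GENCODE vM21 (GRCm38), which gave positions, lengths and GC content. RefSeq promoters were described for 8 of the 9, with Mbd2 left out. Methylation and single-cell data were not analysed here.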

Additional observations from a re-analysis of the deposited data

How the results depend on the processing

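Across 16 alternatives, scaling by total counts alone moved the estimates of the 9 genes most, since it lowered the median of all genes to -0.50. Under it the log2 fold changes were -0.32 for Dnmt1, -0.72 for Dnmt3a, -0.68 for Uhrf1, -0.34 for Tet1, -0.45 for Tet2, -0.86 for Tet3, -0.017 for Mbd2, -0.16 for Gatad2b, -0.053 for Mat2b and -0.21 for Pcna, 4 of the 9 genes were called (Dnmt3a, Uhrf1, Tet2 and Tet3, all 4 lower), 4650 genes in all were called (96 higher, 4554 lower), and of the listed pathway genes 40 were called (0 higher, 40 lower). Relative to that median, Tet3 stood at -0.36, Dnmt3a at -0.23, Uhrf1 at -0.18 and Tet2 at 0.04.

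Mbd2 was the 1 gene of the 9 called, as higher, by limma voom (0.47), the likelihood ratio test (0.48), no filter (0.47), the replicate block (0.47) and the GC and length offsets (0.51), and without old pool 1 (0.57). It was not called by DESeq2 or with the other scalings and filters, with adjusted p from 0.0540 to 0.932 over those fits. Genes called over all, 309 in the report (223 higher, 86 lower), were 611 (375 and 236) by the likelihood ratio test, 197 (147 and 50) by DESeq2, 554 (357 and 197) with no filter and 182 (134 and 48) with the offsets. Listed pathway genes called, 2 in the report, were 4 (3 lower) by the likelihood ratio test, the upper quartile and no filter, 1 (0 higher) by DESeq2, 0 (0 higher, 0 lower) with the offsets, and 2 of them lower where each library had to hold 10 counts or more.

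The replicate numbers stand for different animals, and deviations of same-numbered pools had a correlation of -0.00015, so they do not pair the pools. With the replicate block, 623 genes were called (407 higher, 216 lower), 1 of the 9 (1 higher) and 4 pathway genes (3 lower), and Mbd2 was at 0.47 (adjusted p = 0.0211).

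Leaving out each pool, with the lone pool of an age assumed to vary like the others, gave 147 to 691 genes called (122 to 464 higher, 25 to 248 lower), 0 to 1 of the 9 (0 to 1 higher) and 1 to 6 pathway genes (0 to 2 higher, 1 to 4 lower). The fewest calls came without young pool 1, and 647 and 691 came without old pools 1 and 2. Estimates turned for Uhrf1 (-0.54 to 0.10), Tet2 (-0.11 to 0.18), Tdg (-0.29 to 0.18) and Sycp3 (-0.87 to 0.23), the last turning without old pool 1. Mbd2 ranged from 0.37 to 0.57, Tet3 from -0.41 to -0.31, Dnmt3a from -0.34 to -0.13, Dnmt1 from 0.14 to 0.20, Tet1 from 0.13 to 0.17 and Dnmt3b from -0.29 to -0.0027. Causes of these changes were not tested. With 2 pools per age, differences the size of those of Dnmt1 or Dnmt3a were within their intervals of 0.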

Other observations

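Genes that DNA methylation is known to silence or mark by parent of origin were mostly below the filter in ISCs of both ages. Of 15 listed germline genes, 8 had 0 counts in all 4 pools and 2 were tested. Tdrd1, a piRNA pathway gene, had 152 and 102 counts in the young pools and 66 and 64 in the old ones (log2 fold change -0.75, adjusted p = 0.149, edgeR), and the estimate was -0.40 without young pool 1 (adjusted p = 0.804). Sycp3, of the meiotic chromosome axis, had 17 and 16 counts in the young pools and 8 and 16 in the old ones. The list added up to 169 and 121 counts in the young pools and to 79 and 82 in the old ones, most of them from Tdrd1.

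Of 16 listed imprinted genes, 6 were tested and 3 had 0 counts in every pool. Peg3, expressed from the paternal allele, had 41 and 54 counts in the young pools and 20 and 10 in the old ones, with no overlap (log2 fold change -1.44, adjusted p = 0.111, edgeR). Its adjusted p was 0.0434 by the likelihood ratio test and 0.313 by DESeq2, and 0.259, 0.382, 0.0349 and 0.252 without young pools 1 and 2 and old pools 1 and 2. Igf2, a growth factor gene, had 30 and 25 counts in the young pools and 46 and 35 in the old ones (log2 fold change 0.77, adjusted p = 0.347), and its count is uncertain, since 3596 bases of its exons overlap those of Gm49394 on the same strand.

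Stem cell markers included no gene called by edgeR's quasi-likelihood test among 10, beside 2.26% of all genes, 6 with an unadjusted p under 0.05 (5 lower and 1 higher, beside 7.65% and 9.26% of all genes), with a list median of -0.22 and the lowest p-values for Axin2, a WNT target (log2 fold change -0.46, adjusted p = 0.0511), and Cdk6, a G1 kinase (-0.35, adjusted p = 0.109). Axin2 did pass by limma voom (0.0263), the likelihood ratio test (0.0301), DESeq2 (0.0373), DESeq2's size factors (0.0492), the upper quartile (0.0399), TMM without mitochondrial genes (0.0438), no filter (0.0119), 10 counts or more in each library (0.0363), the replicate block (0.0188) and total counts. It did not pass with filterByExpr (0.0558) or the GC and length offsets (0.230). Leaving out young pool 1 gave 0.495, and leaving out young pool 2, old pool 1 or old pool 2 gave 0.0404, 0.0131 and 0.0302. Cdk6 passed by limma voom (0.0405), with no filter (0.0387), by total counts and without old pool 1 (0.00853). Of 10 secretory markers 2 were called (2.26% of all genes), both higher in old pools, Dclk1, a tuft cell marker, by 3.09 on the log2 scale from levels of 0.276 and 0.265 CPM to 3.18 and 1.56 CPM (4 and 4 against 42 and 19 counts, so that it passed the filter through the old pools alone), and Defa24, a Paneth cell defensin, by 0.87 with old pool 1 at 584 CPM and old pool 2 at 268 CPM. Without old pool 1 these were 2.49 (adjusted p = 0.230) and 0.20 (adjusted p = 0.403), without old pool 2 Defa24 was at 1.33, and without young pool 1 the adjusted p of Dclk1 was 0.0559. Dclk1 was not called by limma voom (0.0873), and Defa24 was not called by DESeq2 (0.659), with the upper quartile (0.0689), filterByExpr (0.0797), 10 counts or more in each library (0.0628), the GC and length offsets (0.0785) or total counts (0.132). Of 12 leukocyte and endothelial markers, 2 were tested and Itgam was higher in old pools by 0.78 (0.62 and an adjusted p of 0.307 without young pool 1), while 4 had 0 counts in all pools. Itgam was not called by DESeq2 (0.0744) or with total counts (0.250), and 3450 bases of its exons overlap those of Gm49368 on the same strand, so its count is uncertain.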
